A study of Mus musculus with 6 samples.

Results

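The glial-only peaks far from any gene are 951 regions of the mouse genome that were called in *LncRNA-HIT* ChIRP-seq of a glial cell line, overlapped no peak of the embryonic limb by a single base, and lay more than 25 kb from the nearest annotated gene body. They were chosen by measured values, namely the called peaks of both tissues, together with their distance to genes, and without a cutoff on score. They made up 34.1% of the 2792 glial-only peaks on chromosomes 1 to 19 and X (95% Wilson interval 32.3% to 35.8%, counting error only), in a glial list of 2919 peaks and a series of 5799 peaks in both lists. Absence from the limb list and distance from genes are therefore properties of the choice and not results.

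The series holds 6 libraries of the Swiss Webster strain. From limb bud of stage E 11.0 there is 1 ChIRP library made with the odd probes, 1 made with the even probes and 1 of input chromatin, and the limb material was the autopod, the future hand and foot plate, pooled over many embryos. From the glial cell line there are likewise 1 odd, 1 even and 1 input library. The labels place this line at E 11.0 and name embryonic brain as its source, whereas the protocol text gives E15.5 for the glial cells, so the stage is uncertain. The glial line was described as not expressing *LncRNA-HIT* and served as the control for false hybridization. No expression values were analysed here, so neither the glial identity nor the absence of the RNA could be checked. The odd and even tracks of a tissue were merged into their lower value at each position before peaks were called against input, which leaves 1 list per tissue without replicates. No comparison below was tested across samples, and the intervals given cover counting error only. How many reads a peak rests on is unknown.

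In ChIRP, short biotinylated DNA probes complementary to an RNA are hybridized to crosslinked, sheared chromatin, and the DNA recovered with the probes is sequenced. Where the RNA is missing, the probes can still recover DNA, for example by pairing with similar sequence, and a control of this kind records such recovery. Long stretches without genes are a regular part of mammalian chromosomes. They are poorer in G and C than gene-rich DNA and rich in interspersed repeats, and in some of them enhancers lie far from the developmental genes they regulate.

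To show what DNA these peaks cover, the central 300 bases of the 3 highest-scoring peaks and of the highest-scoring peak low in repeats are printed from the plus strand of mm9. Capitals mark bases in repeated words, which are stretches of 24 bases found again somewhere else in mm9 on the same or the opposite strand.
chr3:5860550-5860849: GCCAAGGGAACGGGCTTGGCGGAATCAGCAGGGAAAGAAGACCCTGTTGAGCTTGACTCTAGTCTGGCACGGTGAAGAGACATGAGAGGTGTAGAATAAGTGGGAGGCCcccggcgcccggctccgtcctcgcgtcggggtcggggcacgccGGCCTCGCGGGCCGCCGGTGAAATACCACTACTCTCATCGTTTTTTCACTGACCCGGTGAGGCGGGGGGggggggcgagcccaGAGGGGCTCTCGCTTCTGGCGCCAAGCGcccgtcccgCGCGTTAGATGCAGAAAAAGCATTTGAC
chr13:3372400-3372699: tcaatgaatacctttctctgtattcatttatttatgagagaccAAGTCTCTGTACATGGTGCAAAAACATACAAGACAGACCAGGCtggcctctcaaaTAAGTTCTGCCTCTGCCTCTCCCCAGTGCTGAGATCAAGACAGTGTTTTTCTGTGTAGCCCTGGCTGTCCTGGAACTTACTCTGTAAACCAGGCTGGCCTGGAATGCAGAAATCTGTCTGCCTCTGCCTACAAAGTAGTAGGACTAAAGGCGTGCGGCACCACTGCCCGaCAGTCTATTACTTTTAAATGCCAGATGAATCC
chr10:34658488-34658787: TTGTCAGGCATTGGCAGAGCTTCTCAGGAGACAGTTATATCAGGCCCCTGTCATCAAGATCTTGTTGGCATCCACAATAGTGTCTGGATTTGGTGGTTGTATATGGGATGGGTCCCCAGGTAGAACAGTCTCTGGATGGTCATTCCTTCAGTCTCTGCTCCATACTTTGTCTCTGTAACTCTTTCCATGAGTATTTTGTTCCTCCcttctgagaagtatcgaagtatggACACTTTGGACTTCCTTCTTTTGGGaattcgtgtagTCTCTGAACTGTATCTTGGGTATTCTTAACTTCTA
chr6:31922087-31922386: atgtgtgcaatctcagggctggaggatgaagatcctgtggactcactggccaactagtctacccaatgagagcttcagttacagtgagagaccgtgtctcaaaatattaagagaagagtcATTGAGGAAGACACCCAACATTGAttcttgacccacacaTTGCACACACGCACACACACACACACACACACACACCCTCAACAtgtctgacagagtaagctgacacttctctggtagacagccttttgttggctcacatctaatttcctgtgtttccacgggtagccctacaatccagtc
In rank order, the 3 strongest hold 234, 244 and 265 capital bases of 300. The fourth holds 68, and these include a run of alternating C and A.

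Further stretches show the other sequence features measured. The first carries in capitals the longest perfect tandem run of any of the 951 peaks, 111 bases of the unit TCTGCC. The second carries in capitals the 20 bases that came closest to a ChIRP probe. The last is the middle of the strongest peak in the run with the most neighbouring peaks, and has no capitals because none of its words is repeated.
chr14:59698274-59698573: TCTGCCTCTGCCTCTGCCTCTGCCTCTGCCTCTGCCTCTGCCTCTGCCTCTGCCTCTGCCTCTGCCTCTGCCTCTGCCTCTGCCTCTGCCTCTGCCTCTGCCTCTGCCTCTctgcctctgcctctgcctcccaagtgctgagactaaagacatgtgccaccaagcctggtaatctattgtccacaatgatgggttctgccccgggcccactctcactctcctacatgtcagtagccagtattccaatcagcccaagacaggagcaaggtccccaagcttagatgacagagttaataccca
chr11:82501105-82501404: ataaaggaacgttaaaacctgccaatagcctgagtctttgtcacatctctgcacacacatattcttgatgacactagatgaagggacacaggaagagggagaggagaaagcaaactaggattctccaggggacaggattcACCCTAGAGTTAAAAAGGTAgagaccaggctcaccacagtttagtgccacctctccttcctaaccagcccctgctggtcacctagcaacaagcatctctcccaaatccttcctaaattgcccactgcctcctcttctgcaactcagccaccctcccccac
chr11:92486512-92486811: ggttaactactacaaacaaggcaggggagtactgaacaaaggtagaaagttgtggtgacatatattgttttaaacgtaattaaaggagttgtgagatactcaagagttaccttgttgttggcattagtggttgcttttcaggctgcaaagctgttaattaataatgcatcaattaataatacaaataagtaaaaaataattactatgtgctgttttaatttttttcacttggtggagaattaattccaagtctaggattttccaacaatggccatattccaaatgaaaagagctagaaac

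The scores of these peaks spanned a wide range, and the strongest were not the strongest of the glial list. The score is the significance MACS gave to a peak against input and is given as −log10(p), so that larger values mean smaller p-values. It ranged from 5.89 to 161.7 over the 951 peaks, with a median of 32.6 (95% order-statistic interval 29.6 to 35.3) and quartiles of 16.7 and 54.7. The 1841 glial-only peaks within 25 kb of a gene had a median of 31.0, quartiles of 15.4 and 53.5, and a highest value of 270.3. The 859 limb-only peaks more than 25 kb from a gene had a median of 34.0 and a highest value of 310. Limb-only peaks near genes had exactly the same highest value, and whether 310 is a ceiling of the limb scores was not tested. The study took forward limb peaks whose p-value was at most 5.9e-57, which is a −log10(p) of 56.2. This threshold was reached by 224 of the 951 peaks (23.6%, 95% Wilson interval 20.97% to 26.4%), against 23.7% of all glial peaks on these chromosomes, so the share was that of the background. It was reached by 402 glial-only peaks nearer to genes (21.8%) and by 240 far limb-only peaks (27.9%). Only 18 of the 951 exceeded 100 and 101 were below 10. The far glial-only peaks made up 32.6% of the whole glial list and 22 of its 100 strongest peaks. None was among the 20 strongest, and the first stood at rank 29.

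**Figure D1:**
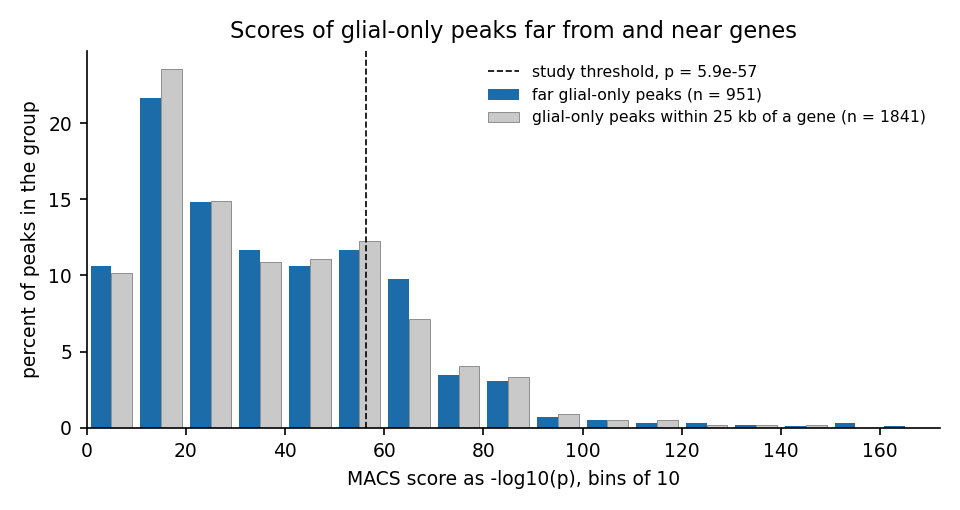
Percent of peaks (y axis) in each bin of 10 units of −log10(p) (x axis) for the 951 far glial-only peaks and the 1841 glial-only peaks within 25 kb of a gene; the dashed line is the study threshold, and 1 near peak at 270.3 lies beyond the axis. Both groups are highest between 10 and 20, with 21.7% and 23.6% of their peaks, and decline together above the threshold.

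The strongest far peaks differed widely in how unique their sequence was. The top peak, chr3:5860446-5860953, had a −log10(p) of 161.7, a GC content of 55.3% and 71.8% of its words repeated elsewhere. It lay 284 kb upstream of *Pxmp3*, which encodes a peroxisome assembly protein. The second, chr13:3372121-3372978, scored 156.5 with 37.0% repeated words. It lay 105 kb upstream of the lincRNA *2810429I04Rik*, and its nearest coding gene was *Gdi2*, a regulator of Rab GTPase recycling, at 164 kb. The peak chr10:34657997-34659278, scored 153.0 with 51.3% repeated words, 173 kb from a small nucleolar RNA gene and 327 kb from *Frk*, a tyrosine kinase gene of the Src group. The next 4 were largely unique in sequence. The peak chr6:31921971-31922503 scored 151.4 with 4.31% repeated words, between the transcript *Gm13849* at 49.7 kb and *1700012A03Rik* at 77.7 kb. The peak chr14:62831996-62832678 scored 144.4 without any repeated word, 62.4 kb downstream of *Dleu7*. The peak chr12:15974896-15975553 scored 139.4 with 7.40% repeated words, in the interval between *Trib2*, a tribbles pseudokinase gene, and *Lpin1*, which encodes a phosphatidate phosphatase. A limb peak lay 293 bp from it, although the 2 did not overlap. The peak chr4:69838821-69839478 scored 136.9 with 0.157% repeated words, 38.4 kb downstream of the centrosomal gene *Cdk5rap2*.

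The remaining 3 of the 10 strongest were also mostly unique. One on chromosome 1 scored 124.2, without repeated words, 127 kb upstream of *Tnp1*, which encodes a transition protein of spermatid chromatin. One on chromosome 10 scored 124.0 with 8.91% repeated words, 31.7 kb downstream of *Iyd*, the gene of a thyroid iodotyrosine deiodinase. One on chromosome 18 scored 122.7 with 4.93% repeated words and was the widest of all 951 at 1606 bp, 96.7 kb from *Wdr7* and 166 kb from the sialyltransferase gene *St8sia3*. Among the 951 peaks the score went with the width of the peak (Spearman's rho 0.74, Pearson's r 0.48, n = 951 peaks from the same libraries, a description only). With the GC content the coefficient was 0.03 and with the percentage of repeated words 0.07. The median width was 407 bp, with a range from 202 to 1606 bp.

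The distance from a far peak to its nearest gene of any type had a median of 98.7 kb, quartiles of 52.1 and 194 kb, and a maximum of 1019 kb. More than 100 kb separated 470 peaks from a gene, more than 200 kb 226 peaks and more than 500 kb 46 peaks. To the nearest coding gene the median was 164 kb, and 147 peaks lay more than 500 kb from one. The nearest gene was protein-coding for 497 peaks (52.3%). For the others it was most often the gene of a small nuclear RNA (128 peaks), a pseudogene (95), a small nucleolar RNA gene (87) or a microRNA gene (53), and 24 had a lincRNA as their nearest gene. Of the 951 peaks, 450 lay upstream and 501 downstream of the nearest gene, and 468 and 483 of the nearest coding gene, so neither side held clearly more.

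Scores varied widely on both sides of the limit. Just inside were a peak 25.01 kb from *Rasa2*, a gene of a Ras GTPase-activating protein, with a −log10(p) of 14.7, one 25.02 kb from the pseudogene *Gm12291* with 10.8, and one 25.08 kb from the chemokine gene *Ccl25* with 39.1. Just outside were a peak 24.88 kb from *Nt5c1b*, a cytosolic nucleotidase gene, with 87.3, and one 24.94 kb from a small nucleolar RNA gene with 32.5.

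The most isolated peaks lay in a few very long gene-free stretches. Of the 5 farthest, 3 with −log10(p) of 18.6, 33.1 and 28.5 lay close to each other on chromosome 10 at 1019, 1018 and 992 kb from the nearest gene, a small nuclear RNA gene. The stretch lies between *Nmbr*, the neuromedin B receptor gene, and *Cited2*, which encodes a transactivator that binds CBP and p300. The other 2, with 46.4 and 56.8, lay 1001 and 995 kb downstream of *Olfm4*, an olfactomedin gene on chromosome 14. One of these 5 peaks reached the study threshold. Across all 951 peaks the correlation of score and distance was near 0 (Spearman's rho -0.01, Pearson's r -0.03, a description over peaks of the same libraries). Its median was 33.5 between 25 and 50 kb from a gene, 29.3 between 50 and 100 kb, 33.1 between 100 and 200 kb and 33.8 beyond 200 kb. The share at the study threshold in these classes was 25.8%, 23.0%, 22.5% and 23.0%.

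**Figure D2:**
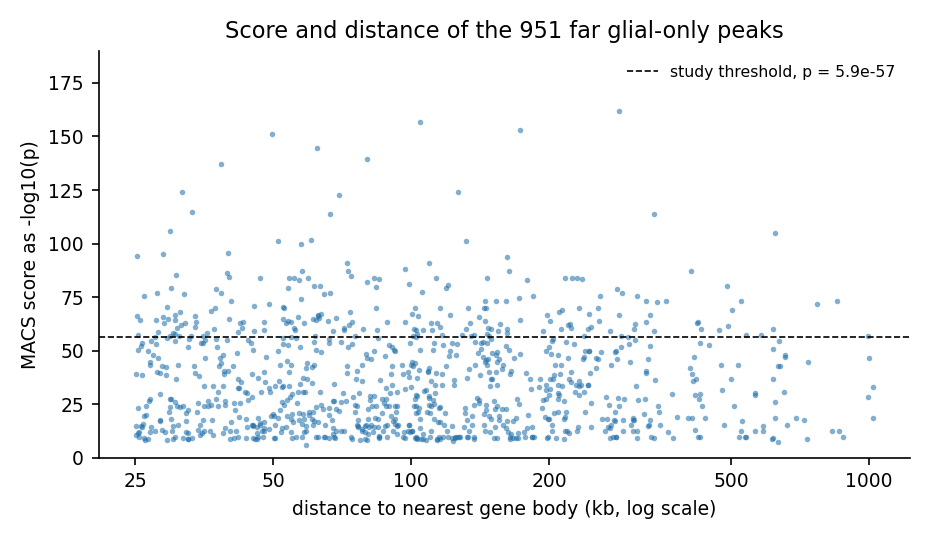
Each point is 1 of the 951 far glial-only peaks, by its distance to the nearest gene body in kb (x axis, log scale) and its −log10(p) (y axis); the dashed line is the study threshold. Peaks above and below the line occur from 25 kb to nearly 1000 kb, and the 3 highest scores lie at 105, 173 and 284 kb.

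Set against the genome, far glial-only peaks were about as frequent as the far DNA itself. Bases more than 25 kb from any gene made up 34.8% of the known bases of chromosomes 1 to 19 and X (889 of 2556 Mb), and the far peaks 34.1% of the glial-only peaks. Peaks rest on unique alignments only, and the far share of uniquely alignable bases was not computed. Among limb-only peaks the far share was 31.0% (859 of 2767, 95% Wilson interval 29.3% to 32.8%). The density was 0.975 far glial-only peaks per Mb of DNA lying 25 to 50 kb from a gene, 1.06 at 50 to 100 kb, 1.14 at 100 to 200 kb and 1.11 beyond. The far peaks lay in 659 gene-free stretches, of which 656 had a gene on both sides and the others reached a chromosome end, and 194 of the 659 held at least 2. Of the 6405 gaps longer than 50 kb 10.2% held a far peak, and of the 104 gaps longer than 1 Mb 62.5%. Densities by gap length were taken over DNA beyond 25 kb from the flanking genes, with unknown bases included and chromosome ends left out (905 Mb). On that basis gaps of 50 to 100 kb held 0.922 peaks per Mb, those of 500 to 1000 kb 1.22 and those over 1 Mb 0.925. These values are therefore not on the same base as the densities by distance.

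Densities had a wider range over chromosomes than over distance classes. Single chromosomes held fewer peaks than the classes, however, and so had a larger counting error. Over all chromosomes there were 1.07 far glial-only peaks per Mb of far DNA. Chromosome 10 had 91, or 1.85 per Mb (exact 95% Poisson interval 1.49 to 2.27), the highest density. Glial-only peaks near genes were also most numerous on chromosome 10, with 159 of 1841 (8.64%), against 9.57% of the far peaks. Far limb-only peaks on the same chromosome had 1.24 per Mb, close to their values on chromosomes 2 and 11. Chromosomes 7, 11 and 18 had 1.44 per Mb each, from 54, 34 and 54 peaks, and chromosome 15 had 1.34 per Mb from 56. The X chromosome had the lowest density, with 19 peaks and 0.357 per Mb (0.215 to 0.558), and far limb-only peaks were as sparse there, with 0.395 per Mb from 21 peaks. The sequence of the far peaks on the X was more repeated, with a median of 38.4% repeated words against 1.26% on the autosomes. Of its 19 peaks 8 lay between 120 and 123 Mb, and 7 of these 8 had at least 50% repeated words.

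**Figure D3:**
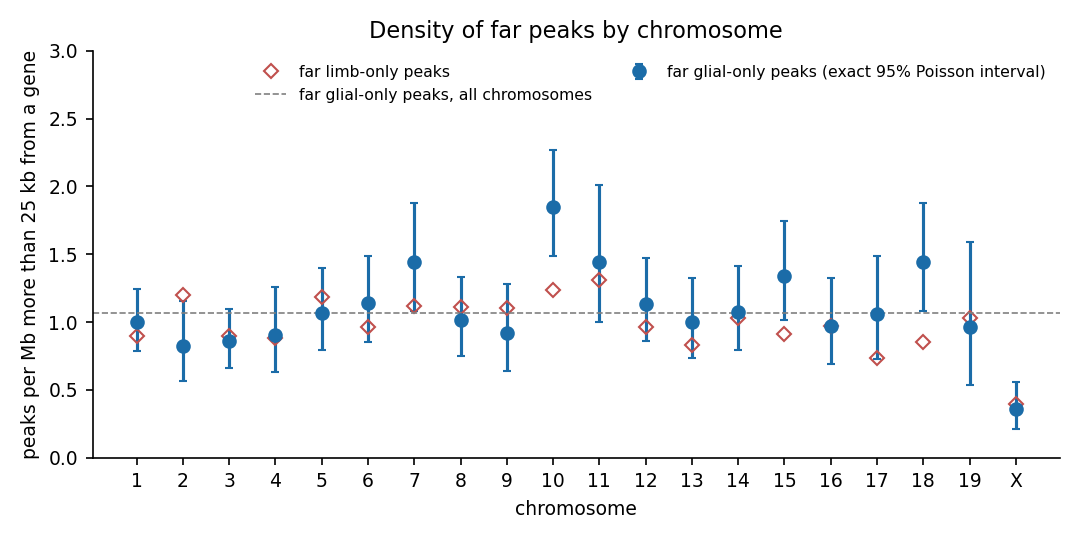
Peaks per Mb of DNA more than 25 kb from a gene (y axis) on each chromosome (x axis), as filled circles with exact 95% Poisson intervals for far glial-only peaks, open diamonds for far limb-only peaks, and a dashed line at 1.07, the value over all chromosomes for the glial-only peaks. Chromosome 10 is highest at 1.85 and the X lowest at 0.357, where both tissues nearly coincide.

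About 1 in 4 far peaks had company. Another glial peak lay within 25 kb of 248 of the 951 (26.1%, 95% Wilson interval 23.4% to 29.0%), within 5 kb of 162 and within 1 kb of 70. Glial-only peaks near genes had the same share, 26.0% (479 of 1841), and far limb-only peaks had 21.5% with another limb peak as near. Joined across distances of at most 25 kb, 236 far glial-only peaks formed 102 runs of 2 or more, and 715 stood alone. Most runs were pairs (81), 15 held 3 peaks and 6 held 4 or more. The median span of a run was 5.48 kb.

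Counted by peaks and not by span, the longest run, chr11:92476748-92487900, held 8 peaks in 11.2 kb. Their −log10(p) from left to right was 33.8, 40.2, 26.6, 37.0, 55.2, 24.5, 70.0 and 47.2. Only the seventh reached the study threshold, and the share of repeated words in the 8 ran from 0 to 18.2%. The run lies 143 kb from the pseudogene *Gm11500*, between *Kif2b*, a kinesin gene, at 1038 kb and *Car10*, which encodes a carbonic anhydrase-related protein, at 471 kb. The second run, chr1:30536096-30554828, held 5 peaks in 18.7 kb, with 56.8, 30.7, 30.6, 53.0 and 36.8, and lay 221 kb from *Gm9898*. In it the strongest peak was also the most repeated, with 63.6% repeated words. The run that came next, chr4:69838821-69850350, held 4 peaks in 11.5 kb that declined toward *Cdk5rap2*, from 136.9 through 78.7 and 60.5 to 12.3. Of its peaks 3 reached the threshold, the most in any of these runs. Within the 6 runs of 4 or more, peaks of high and low score stood side by side, as on chromosome 10, where a peak of 105.1 shared a run with 8.85, 37.0 and 50.9.

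**Figure D4:**
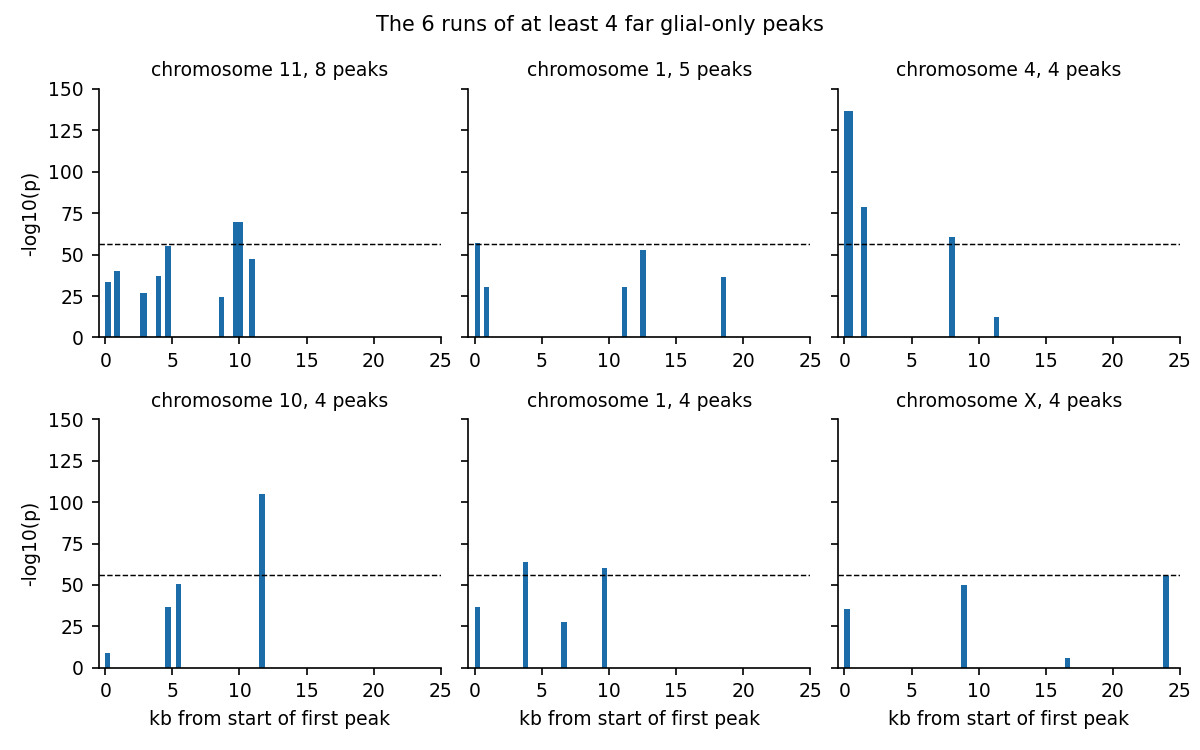
The 6 runs of at least 4 far glial-only peaks, each bar 1 peak at its distance in kb from the start of the first peak (x axis) with its −log10(p) as height (y axis); the dashed line is the study threshold. The run on chromosome 11 has 8 peaks in 11.2 kb, and on chromosome 4 the heights decline from 136.9 to 12.3.

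The gaps with the most far peaks included those of the longest run and of the second run. The gap between the pseudogenes *Gm11499* and *Gm11500* on chromosome 11, 640 kb long, held 9. A gap of 1301 kb on chromosome 10 between a small nuclear RNA gene and *D630037F22Rik*, with *Man1a*, a mannosidase gene of N-glycan trimming, as the coding gene on its other side, held 6, with scores from 8.85 to 105.1. A gap of 733 kb on chromosome 1 between a microRNA gene and *Gm9898* also held 6, none above 56.8. A gap of 700 kb on chromosome 5 held 5, and lies between *Agpat9*, which encodes an acyltransferase of glycerolipid synthesis, and a transcript next to *Nkx6-1*, a homeobox gene of neural tube and pancreas patterning. A gap of 881 kb on chromosome 1 between *Cdh19*, a cadherin gene, and *Dsel*, an epimerase gene of dermatan sulfate, held 5 as well. Other gaps also held 5 peaks, and those with the highest-scoring peak are named.

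The coding genes on either side of the far peaks were 1103 in number, of the 6882 coding genes that border DNA more than 25 kb from any gene (16.0%). Of the genes of cell adhesion and axon guidance, such as cadherins, protocadherins, contactins and Eph receptors, 90 bordered this DNA and 48 flanked a far peak. At least 1 such gene flanked 105 of the 951 peaks (11.0%), and they flanked 12.7% of the far DNA, which for these gene classes was measured between genes with unknown bases included and chromosome ends left out (905 Mb). Examples chosen after their values were seen are *Cdh10*, *Cdh9* and *Pcdh9* with 6 peaks each, and *Epha4* with 5, the strongest of which scored 60.0. *Cdh9* and *Cdh10* are neighbours, and the peaks between them count for both. Developmental transcription regulators flanked 45 peaks (4.73%) and 3.98% of the far DNA, from 26 of 102 bordering genes. Among them, by the same later choice, *Irx1* had 5 peaks with a highest score of 43.5. Ion channels and transmitter receptors flanked 35 peaks (3.68%) against 4.40% of the far DNA, from 24 of 101 bordering genes. Chemosensory receptors flanked 18 (1.89%) against 1.06%, from 12 of 256 bordering genes (4.69%), and of these peaks *Vmn2r121*, a vomeronasal receptor gene on the X, accounted for 4. Of 8 astrocyte genes 3 bordered far DNA and only *Slc1a3*, the glutamate transporter gene of astrocytes, flanked a far peak, at 117 kb with a −log10(p) of 39.1. Of 10 genes of the oligodendrocyte lineage 4 bordered far DNA and none flanked a far peak.

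The base composition of the far peaks was close to that of the DNA around them. Their median GC content was 40.3% (quartiles 36.3% and 44.4%), against 39.8% in 2 kb on either side and 43.7% in glial-only peaks nearer to genes. It was higher than that of its flanks in 482 of the 951 peaks (50.7%). With distance from genes the median declined from 41.6% at 25 to 50 kb through 40.9% and 40.2% to 38.4% beyond 200 kb, while all bases at these distances had 41.2%, 40.4%, 39.6% and 38.2%. Far limb-only peaks had a higher median in each of the 4 classes, from 43.4% to 39.9%. No CG pair was present in 135 far glial-only peaks (14.2%), against 9.02% of those near genes and 13.2% of far limb-only peaks.

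**Figure D5:**
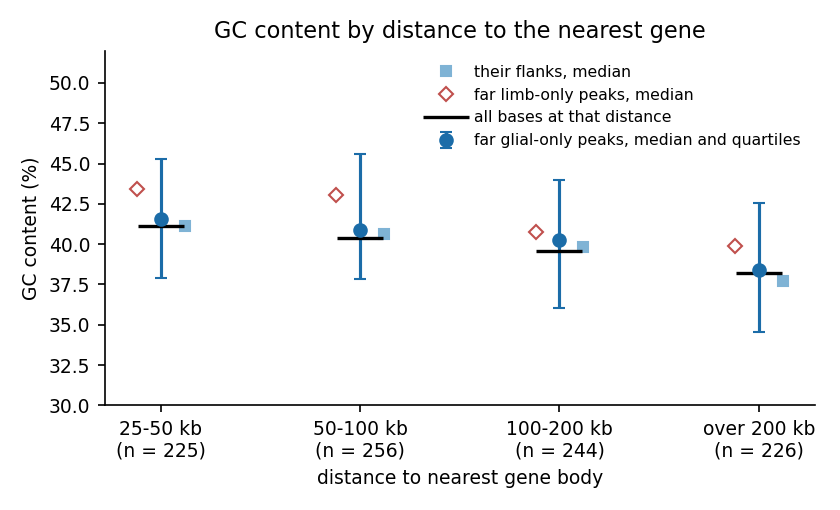
GC content in percent (y axis) by distance to the nearest gene body (x axis), as circles with quartile bars for the far glial-only peaks, squares for their flanks of 2 kb on either side, diamonds for far limb-only peaks and horizontal ticks for all bases at that distance. The circles decline from 41.6% to 38.4% and stay within 1 percentage point of the ticks, with the diamonds above both.

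Most far peaks were largely unique in sequence. The authors kept only unique alignments, so highly repeated DNA had less opportunity to be called as a peak. The share of repeated words in far DNA as a whole was not computed. A median of 1.32% of the 24-base words of a peak occurred elsewhere in the genome, 384 peaks had no repeated word, and 673 (70.8%) had less than 10%. At least 50% of the words were repeated in 43 peaks, of which 14 reached the study threshold (32.6%), against 144 of the 673 low in repeats (21.4%). Glial-only peaks near genes had a like median of 1.31%. A perfect tandem run of a unit of 1 to 6 bases and at least 20 bases long was present in 119 peaks (12.5%), against 12.2% near genes and 11.1% of far limb-only peaks. The unit had 2 bases in 68 of the 119, most often AC or its rotations and complement (50 peaks). The peak with the longest run, printed above, was weak, with a −log10(p) of 14.5.

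Similarity to the ChIRP probes was scored without gaps on both strands. At least 15 of the 20 bases of a probe were matched in 122 far glial-only peaks (12.8%, 95% Wilson interval 10.9% to 15.1%), against 11.9% of glial-only peaks near genes and 15.8% of far limb-only peaks. The best match was 14 of 20 in 404 peaks and 13 of 20 in 415. How often random sequence or other far DNA reaches such matches was not computed, so the shares do not by themselves show similarity to the probes. The best match was to a probe of the odd set in 69 of the 122 peaks and of the even set in 53. The odd set holds more of the 25 probes and was searched first, so equal matches were counted for it. A stretch of 12 identical bases in a row was less common, present in 22 far glial-only peaks (2.31%, interval 1.53% to 3.48%), 2.77% of those near genes and 8.27% of far limb-only peaks. One far glial-only peak matched 17 of 20 bases, the highest number found among the 951. It lay 31.3 kb from *Cct6b* with a −log10(p) of 68.0, and matched probe 19 of the odd set. The probe and its site are shown 5′ to 3′ on the plus strand, with identical bases in capitals.
Probe 19: ACtCTAGAGTTAggAAGGTA
chr11:82501245-82501264: ACcCTAGAGTTAaaAAGGTA

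The nearest limb peak was within 25 kb of 63 far peaks (6.62%), close to the 6.68% of glial-only peaks nearer to genes. It was within 1 kb of 4, the closest at 277 bp. At the median the nearest limb peak was 368 kb away and the nearest other glial peak 193 kb. Another 15 far glial peaks overlapped a limb peak and are not part of the 951. Their median −log10(p) was 45.6 and their median share of repeated words 11.5%.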

How the data were processed

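*LncRNA-HIT* ChIRP-seq libraries of limb bud and of a glial cell line were made with odd and even probes, with 1 input each. The authors aligned reads to mm9 with Bowtie 0.12.9, kept unique alignments, scaled each library by its total reads, merged odd and even tracks by their minimum and called peaks against input with MACS, whose version is not given in the sources used here. The deposited score of each peak is 10 times −log10 of the p-value as called by the authors, and was divided by 10. Other columns hold positions. The deposited probe table holds sequences and other text. Depth is unknown.

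Peaks on chromosomes 1 to 19 and X were compared with all 37252 gene bodies of GENCODE M1 on mm9. An overlap was at least 1 bp, and distances ran from peak edge to gene body edge. Repeated words of 24 bases, tandem runs and probe matches (15 of 20 bases, 25 probes) were read from the mm9 genome. Gene classes were defined by symbol, which can be old. The members, lists and classes were chosen with earlier results of these data known. Regions named are the 10 highest-scoring and 5 farthest peaks, the 3 longest runs, the 5 fullest gaps and 3 peaks on each side of the limit, with their flanking genes. A value that this rule covers is not reported here. Others were chosen after their values were seen, as was the last of the first 7 stretches printed. Other limits, gene sets, windows, match lengths and repeat limits were tried. The steps were tested on simulated data. Python 3.11.15, numpy 2.4.6, pandas 2.3.3, scipy 1.17.1, numba 0.67.0 and matplotlib 3.10.9 were used.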

Additional observations from a re-analysis of the deposited data

How the results depend on the processing

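Of 25 alternative settings, 12 left the value within its margin, which was 1.5 times either way for the number of peaks and the 95% interval of the main value for a median or share. With limits of 10 and 50 kb, coding genes only, distances from the peak centre, removal of peaks within 1 kb of a limb peak or inclusion of the shared peaks, the number of far glial-only peaks stayed within 1.5 times 951, and the median score stayed between 30.6 and 33.8 with limits of 10, 50 and 100 kb, coding genes only or peaks low in repeats alone. The number fell to 470 with a limit of 100 kb and to 224 at the study threshold. The median distance became 164 kb with coding genes only and 84.5 kb for peaks at the study threshold. The share with another glial peak near was 21.3%, 30.5% and 37.3% with windows of 10, 50 and 100 kb. The share with a tandem run was 19.3% for runs of at least 15 bases and 7.78% for 30. The share with a probe match was 0.105% for 17 of 20 bases and 2.31% for 12 identical bases in a row. The share low in repeats was 61.1% with a limit of 5% of words and 86.0% with 25%. The cause of the shorter median distance at the study threshold was not tested. No paired analysis was possible because each tissue has 1 peak list from merged odd and even libraries. Without read counts or replicates, the depth behind a score and its spread could not be examined.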

Other observations

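Many edges of the far glial-only peaks fell on a grid. Of the 951 start positions, 531 (55.8%) had the same remainder when divided by 25, and of the end positions 535 (56.3%), where an even spread would give 4%. Glial-only peaks near genes (54.3% of starts) and far limb-only peaks (56.8%) had the same feature. The remaining edges lay off this grid. Whether peaks were called on binned tracks was not tested, so the resolution of edges and of distances between neighbouring peaks is unknown.

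Many scores were tied, although they are given to 3 decimals. How many ties to expect was not computed. The 951 peaks had 714 distinct values and 361 peaks shared theirs with another far peak. Within their own groups, 619 of 1841 glial-only peaks near genes had a tied score. So had 257 of 859 far limb-only peaks and 620 of 1908 limb-only peaks near genes. Among the 951 the most frequent values of −log10(p) were 9.78 in 16 peaks, 15.5 in 12, 12.6 in 11, 60.2 in 8 and 24.5 in 7.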
